A study of Mus musculus with 6 samples.

Results

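Chemokines and their receptors were examined in preparations of mouse intestinal epithelial cells, as 49 genes among 18193 genes with a single symbol on the array. A gene was a member if its symbol began with Ccl, Cxcl, Ccr or Cxcr and a digit, or was Xcl1, Xcr1, Cx3cl1 or Cx3cr1. Ccl25 was left out by this rule, so the level of that ligand is not described. Of the 49 genes, 32 encode ligands and 17 encode receptors. Where a gene had several probe sets, the one brightest on average over the 6 arrays stands for it, on the deposited log2 scale, where a difference of 1 is a doubling. A level above 5 on at least 3 arrays was required for testing, which 19 members met, 15 ligands and 4 receptors.

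The arrays came from 6 mice of a mixed 129/SV and C57BL/6 background, with 1 array per mouse. All 6 carried floxed Pggt-Iβ, named Pggt1b here after the array, which encodes the beta subunit of the enzyme protein geranylgeranyl transferase type I (GGTase-I). The 3 controls were VillincreERT2 negative. The 3 mice called deficient were VillincreERT2 positive, which places a tamoxifen-inducible recombinase under an epithelial promoter, so the deletion was directed to epithelial cells and not to leukocytes. Control and deficient mice alike received 1 mg tamoxifen on each of 3 days, with epithelial cells collected at day 6. Effects of the recombinase itself, which only the deficient mice carried, and effects of losing the enzyme cannot be told apart. The sources used here do not give age, sex or gut segment. Pggt1b itself read 9.30, 9.55 and 9.33 in controls 1 to 3 and 9.75, 8.88 and 8.83 in deficient mice 1 to 3, with overlapping groups. Where its probe set lies relative to the deleted part is not given, so this value does not check the labels.

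Chemokines are small secreted proteins that attract leukocytes along a gradient, and they are grouped as CC, CXC, XC and CX3C by the spacing of cysteines near their start. Their receptors are G protein-coupled and signal mainly through Gi proteins to phosphoinositide 3-kinase and to small GTPases such as Rac, which reshape the actin cytoskeleton of a migrating cell. In the gut, epithelial cells release chemokines such as CCL20, CCL28, CXCL16 and CX3CL1, while the intraepithelial lymphocytes that lie between them make CCL3, CCL4, CCL5 and XCL1 and carry homing receptors such as CCR9 and CXCR6.

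Cxcl1, Cxcl2 and Cxcl3, which encode CXC ligands of neutrophils acting through CXCR2, are neighbours in the genome and carry the same short letters just before their start. Cxcl3 alone of them passed the test described further on. Their RefSeq promoter windows on GRCm38.p6 are printed so that the shared elements can be seen, each as the 120 bases before the start on the plus strand, at chr5:90891125-90891244 for Cxcl1, chr5:90903779-90903898 for Cxcl2 and chr5:90785981-90786100 for Cxcl3. Capitals mark the longest run of letters common to these windows, GGGAATTTCCC, which has the form of the kappa B element that NF-kappa B binds. Capitals also mark the TATA-like letters ATAAAAGG, nearer to the start.
Cxcl1: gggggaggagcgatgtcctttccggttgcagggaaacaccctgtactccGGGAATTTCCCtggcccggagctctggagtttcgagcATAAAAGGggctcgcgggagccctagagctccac
Cxcl2: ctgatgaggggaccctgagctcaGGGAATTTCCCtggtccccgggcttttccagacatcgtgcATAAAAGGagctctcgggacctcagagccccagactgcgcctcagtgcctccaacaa
Cxcl3: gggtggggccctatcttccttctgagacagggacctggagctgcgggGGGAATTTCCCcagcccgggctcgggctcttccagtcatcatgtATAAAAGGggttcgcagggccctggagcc
The shared run began 71, 97 and 73 bases before the start in Cxcl1, Cxcl2 and Cxcl3. Over both strands of the 250 bases before the start it was found in 0.0426% of 32851 RefSeq promoters, and in no other of the 36 members with a promoter in the table. It was chosen from these genes, so their own matches are by construction. The TATA-like letters, also searched on both strands, were found in 1.54% of all promoters and in 6 of the 36 members.

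The promoters of Ccr9, Cxcr6 and Xcl1, named above with intraepithelial lymphocytes, are shown as examples of members that fell, as given below. Each window is the 250 bases before the start, on the plus strand at chr9:123766961-123767210 for Ccr9 and chr9:123806227-123806476 for Cxcr6, and on the minus strand at chr1:164935523-164935772 for Xcl1. Capitals mark the Runx letters TGTGGT and, in Xcl1, the TATA-like letters. They also mark the T-box letters GGTGTG, and all were searched on both strands. A match on the opposite strand therefore appears as its reverse complement, ACCACA for Runx and CACACC for T-box. Runx and T-box proteins are transcription factors, several of which act in lymphocytes.
Ccr9: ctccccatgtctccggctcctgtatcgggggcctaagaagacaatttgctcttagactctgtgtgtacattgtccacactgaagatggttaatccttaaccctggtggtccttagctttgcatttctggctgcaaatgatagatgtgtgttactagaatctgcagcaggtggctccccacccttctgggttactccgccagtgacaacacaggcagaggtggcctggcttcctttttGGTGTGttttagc
Cxcr6: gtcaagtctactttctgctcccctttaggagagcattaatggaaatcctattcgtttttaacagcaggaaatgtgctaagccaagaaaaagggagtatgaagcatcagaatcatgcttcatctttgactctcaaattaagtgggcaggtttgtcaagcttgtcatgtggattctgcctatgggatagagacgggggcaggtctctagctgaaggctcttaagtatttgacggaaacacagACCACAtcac
Xcl1: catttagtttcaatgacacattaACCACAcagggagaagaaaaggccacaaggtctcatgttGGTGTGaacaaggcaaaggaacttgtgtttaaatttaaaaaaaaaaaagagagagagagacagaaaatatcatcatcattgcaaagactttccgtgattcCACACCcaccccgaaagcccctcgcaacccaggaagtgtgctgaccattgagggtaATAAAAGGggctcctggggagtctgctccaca
In Cxcr6 the Runx match lies 10 bases before the start, and in Ccr9 the T-box match 13. Runx letters stood in Cxcr6 and Xcl1 and T-box letters in Ccr9 and Xcl1. Cxcl3 and Cxcr4 also fell and held neither in their 250 bases, and the Cxcr4 window is not printed. Among tested members without a call, Runx letters stood in Ccl20, Ccl3 and Ccr1, and T-box letters in Ccl20 and Ccl6. Such short letters are common: 14% of all promoters held the Runx letters and 16.3% the T-box letters, against 9 and 5 of the 36 members. A match is a description of the letters, and the 4 motifs were chosen with the values known. For Ccl4, Ccl5, Cxcl11 and Cxcl16 no promoter is printed.

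Among the 19 members tested, 7 fell and 0 rose in the deficient arrays: the ligands Ccl5, Xcl1, Ccl4 and Cxcl3 and the receptors Cxcr6, Ccr9 and Cxcr4 (limma with Benjamini-Hochberg adjustment over all genes, threshold 0.05). At an unadjusted p under 0.05 the counts were 10 lower and 0 higher. The share of all genes tested under that threshold is not given. Unadjusted counts here and in the lists below are therefore not set against the series. Over the 8893 genes tested, 2.09% passed in either direction, 1.98% lower and 0.112% higher. The median log2 change of the tested members was -1.03, beside -0.04 over all genes tested. Means were lower in the deficient arrays for 15 members and for 54.6% of all genes tested. Groups did not overlap for 9 members, all lower, where 16.7% of all genes tested had non-overlapping groups in the lower direction and 9.0% in the higher. These shares describe the members and are no test, because Xcl1, Cxcr6 and Cxcr4 lay above 5 in controls alone and so entered the test through the group where they were high. The count moved with single arrays. Without control 1 or without deficient 2 only Ccr9 and Cxcr6 passed, and 4 members passed without control 3 or without deficient 3.

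**Figure D1:**
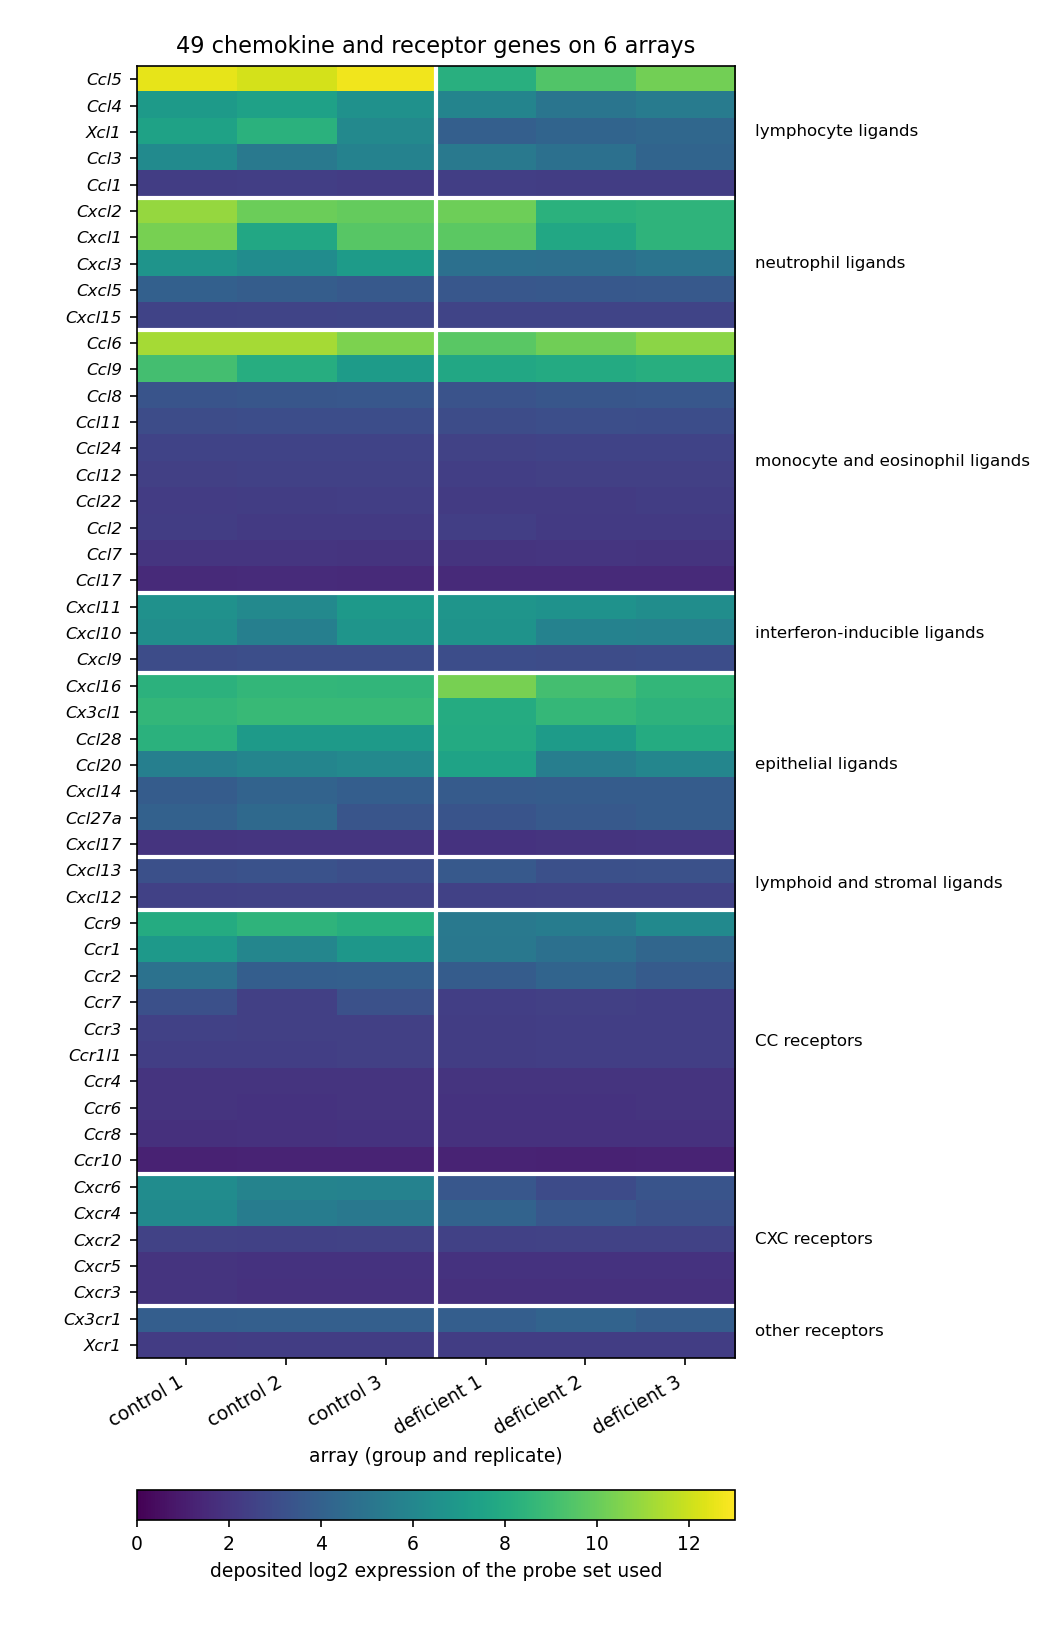
Deposited log2 expression (colour) of the 49 members (rows, grouped by role) on the 6 arrays (columns). Ccl5 reads 12.17 to 12.72 in controls and 8.21 to 10.23 in deficient mice, and the 30 members that were not tested stay at or below 4.90 on every array.

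**Figure D2:**
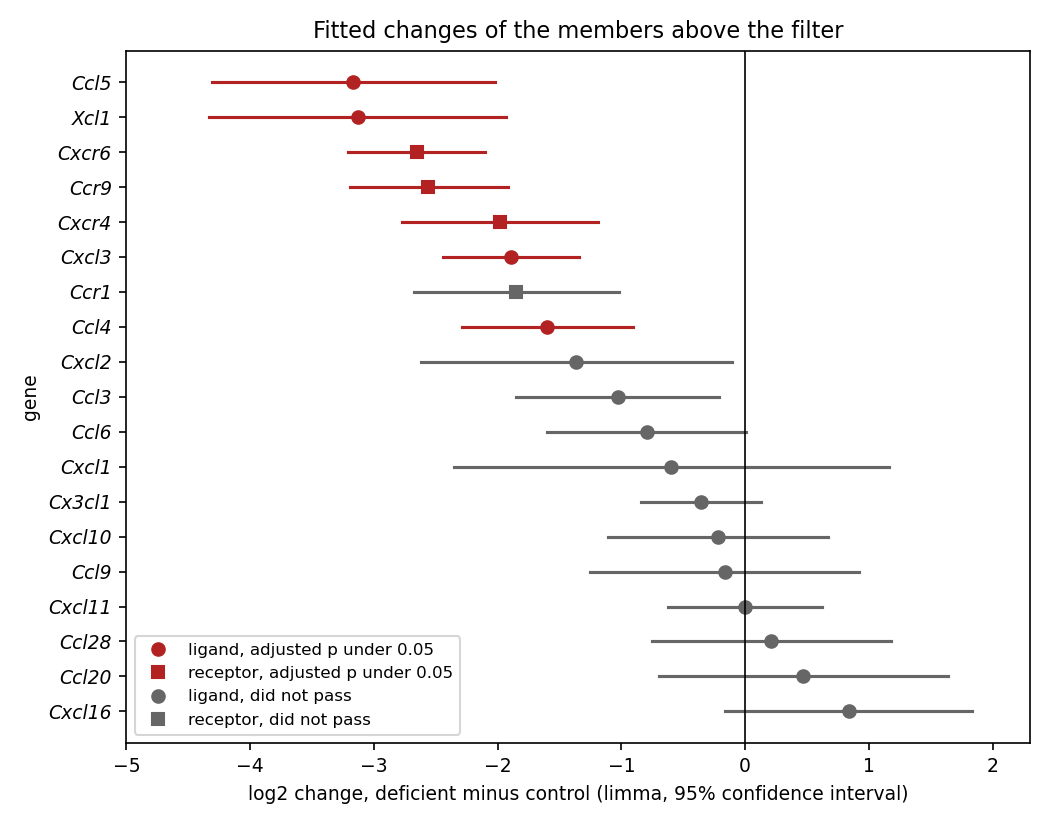
Log2 change, deficient minus control, of the 19 tested members with 95% confidence intervals from limma (circles ligands, squares receptors, red where the adjusted p was under 0.05). The 7 red symbols all lie on the negative side, and Cxcl16 has the highest change at 0.84.

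Of the 4 tested ligands grouped here as lymphocyte ligands, 3 fell, beside 1.98% of all genes tested. The grouping was made with earlier results known and does not show which cells made them. Ccl5 is a T cell and monocyte attractant that cytotoxic lymphocytes make. It read 12.51, 12.17 and 12.72 in controls 1 to 3 and 8.21, 9.45 and 10.23 in deficient mice 1 to 3. The lowest control lay well above the highest deficient array. The log2 change was -3.17 ± 0.48 (SE, n = 3 and 3), an 8.99-fold fall (limma adjusted p = 0.0219). Leaving out any control, or deficient 2, took the call away, with an adjusted p of up to 0.1 by limma, while the change stayed between -3.63 and -2.63.

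Xcl1, the lymphotactin that attracts cross-presenting dendritic cells through XCR1, read 7.49, 8.28 and 6.12 in controls. On deficient arrays 1 to 3 it read 3.96, 4.21 and 4.34, all below the level 5. The fall was at least 4.92-fold against that level (fitted log2 -3.13 ± 0.51, limma adjusted p = 0.0279). With values below 5 raised to 5 before the fit the change was -2.30 and did not pass (limma adjusted p = 0.0891), nor did it with array weights (0.0557). Controls spread over more than 2 log2 units, and the call was kept only without control 2 or control 3 among the fits that left out 1 array (limma adjusted p from 0.0128 to 0.124). Its receptor Xcr1 read between 2.29 and 2.38 on all 6 arrays.

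Ccl4, an attractant of T cells and monocytes, read 7.10, 7.43 and 6.60 in controls and 5.86, 5.05 and 5.42 in deficient mice. All deficient values lay below all controls, and the fall was 3.04-fold (log2 -1.60 ± 0.29, limma adjusted p = 0.0459). This call passed in 1 of the 6 fits that left out an array, the one without deficient 1, with limma adjusted p of up to 0.177. Ccl3, its neighbour and close relative, read 6.23, 5.27 and 5.78 in controls and 5.24, 4.79 and 4.17 in deficient mice. The groups just missed overlapping, and the change of -1.03 ± 0.34 (SE) did not pass (limma adjusted p = 0.22, 95% interval -1.85 to -0.21). Ccl1, a T cell ligand of CCR8, read between 2.32 and 2.41.

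Neutrophil-attracting ligands gave 1 fall, Cxcl3. It read 6.73, 6.34 and 7.14 in controls and 4.81, 4.73 and 5.0 in deficient mice, a clear gap between tight groups. The fall was at least 3.34-fold (fitted log2 -1.89 ± 0.23, limma adjusted p = 0.00889), and it passed in 4 of 6 fits that left out 1 array, with adjusted p of 0.0535 without control 1 and 0.0553 without deficient 2 by limma. Cxcl2, with the same kappa B letters as printed above, read 10.96, 10.10 and 9.94 in controls and 10.15, 8.30 and 8.45 in deficient mice. Deficient 1 lay among the controls, and the change of -1.37 ± 0.53 (SE) did not pass (limma adjusted p = 0.27, 95% interval -2.62 to -0.11).

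Cxcl1 varied more between mice of one group than between groups. It read 10.35, 7.78 and 9.62 in controls and 9.74, 7.78 and 8.45 in deficient mice, with control 2 and deficient 2 equally low. The change was -0.60 ± 0.74 (SE, limma adjusted p = 0.698, 95% interval -2.35 to 1.16). It was -1.18 with array weights, -0.05 without control 1 and -1.33 without control 2, and passed in none of these fits. With the replicate number as a block the SE of Cxcl1 was 0.28 (limma adjusted p = 0.402). That of Cxcl2 was 0.26 (limma adjusted p = 0.109). Whether these numbers pair the mice is not known. Both other Cxcl1 probe sets above 5 also read lowest in deficient 2 and, among controls, in control 2, with mean differences of -0.71 and -0.33. Whether Cxcl3 changed more than Cxcl1 or Cxcl2 was not tested. The other ligands of this group, Cxcl5 and Cxcl15, stayed at or below 3.98 and 2.72, and the shared receptor Cxcr2 at or below 2.56.

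**Figure D3:**
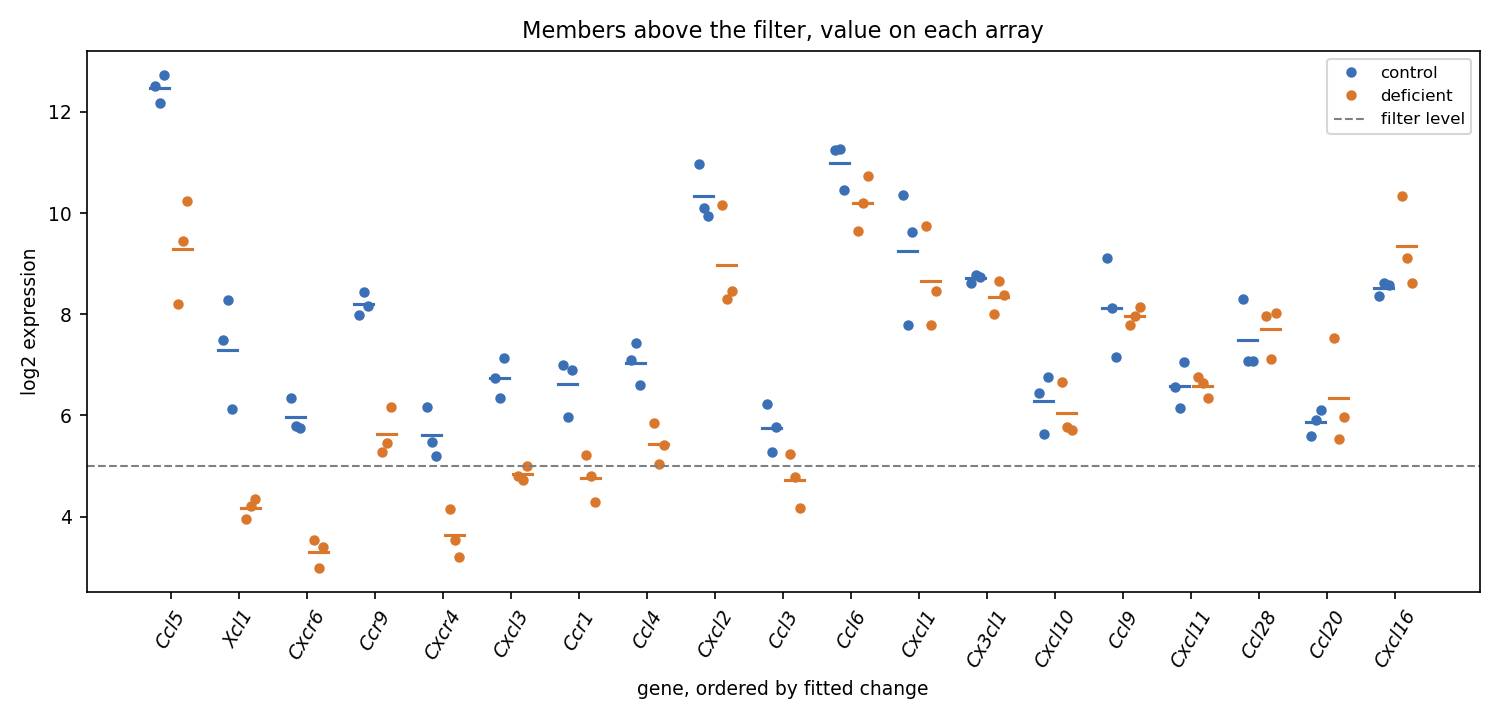
Log2 expression of the 19 tested members on each array (points; blue control, orange deficient; horizontal bars are group means; the dashed line is the filter level of 5), ordered by fitted change. Ccl5, Cxcr6, Ccr9 and Cxcl3 show a gap between the groups, while the Cxcl1 points of both groups run from 7.78 upwards and intermix.

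All 4 tested receptors had lower values in the deficient arrays without overlap, and 3 passed, beside 16.7% and 1.98% of all genes tested. Cxcr6 and Cxcr4 lay above 5 in controls alone, so their groups could not overlap once they met the filter. Cxcr6, the receptor of CXCL16 found on intraepithelial and other tissue-resident T cells, read 6.34, 5.79 and 5.76 in controls and 3.53, 2.99 and 3.40 in deficient mice. Every deficient value lay below the level 5, so the fall is given as at least 1.95-fold (fitted log2 -2.65 ± 0.24, limma adjusted p = 0.00234). Leaving out any 1 of the arrays kept the call (limma adjusted p up to 0.0169), but not when values below 5 were raised to 5 before the fit (0.0779). The other Cxcr6 probe set with values above 5 read 5.87, 3.26 and 5.16 in controls and 3.15, 3.24 and 3.3 in deficient mice, so its groups overlapped through control 2.

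Ccr9, the small-intestinal homing receptor of T cells, read 7.99, 8.43 and 8.16 in controls and 5.28, 5.45 and 6.17 in deficient mice. All 6 values stood above 5 and the groups were far apart. The fall was 5.89-fold (log2 -2.56 ± 0.27, limma adjusted p = 0.00461) and passed in each of the 6 fits that left out 1 array, with limma adjusted p of at most 0.031. The probe set used is of a design that can match related transcripts. A further Ccr9 probe set read 5.95, 5.58 and 5.98 in controls and 3.63, 4.06 and 4.56 in deficient mice, where it lay below the level 5 on every array.

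Cxcr4, the receptor of CXCL12 on most leukocytes, read 6.16, 5.48 and 5.20 in controls and 4.16, 3.54 and 3.20 in deficient mice. Controls were not far above the level 5 and deficient values were all below it, so the bound is low, at least 1.53-fold (fitted log2 -1.98 ± 0.33, limma adjusted p = 0.0327). With values below 5 raised to 5 the change was -0.61 and did not pass (limma adjusted p = 0.289). Among the fits that left out 1 array, Cxcr4 passed without deficient 1 and in no other (limma adjusted p up to 0.156). Its ligand Cxcl12 read between 2.5 and 2.57.

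Ccr1, a receptor of CCL3, CCL5, CCL6 and CCL9 on myeloid cells, read 7.0, 5.97 and 6.89 in controls and 5.21, 4.81 and 4.28 in deficient mice. Its groups did not overlap, yet the change of -1.85 ± 0.35 (SE) just missed the threshold (limma adjusted p = 0.0531). It passed in 4 of 16 alternatives: without control 2 (limma adjusted p = 0.0318), with array weights, after a further quantile normalization and after median centring. In the other 12 it did not, with a limma adjusted p of up to 0.206. The mean of both Ccr1 probe sets gave -0.99 (limma adjusted p = 0.0923), the dimmer one being below 5 on every array with a difference of -0.13.

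**Figure D4:**
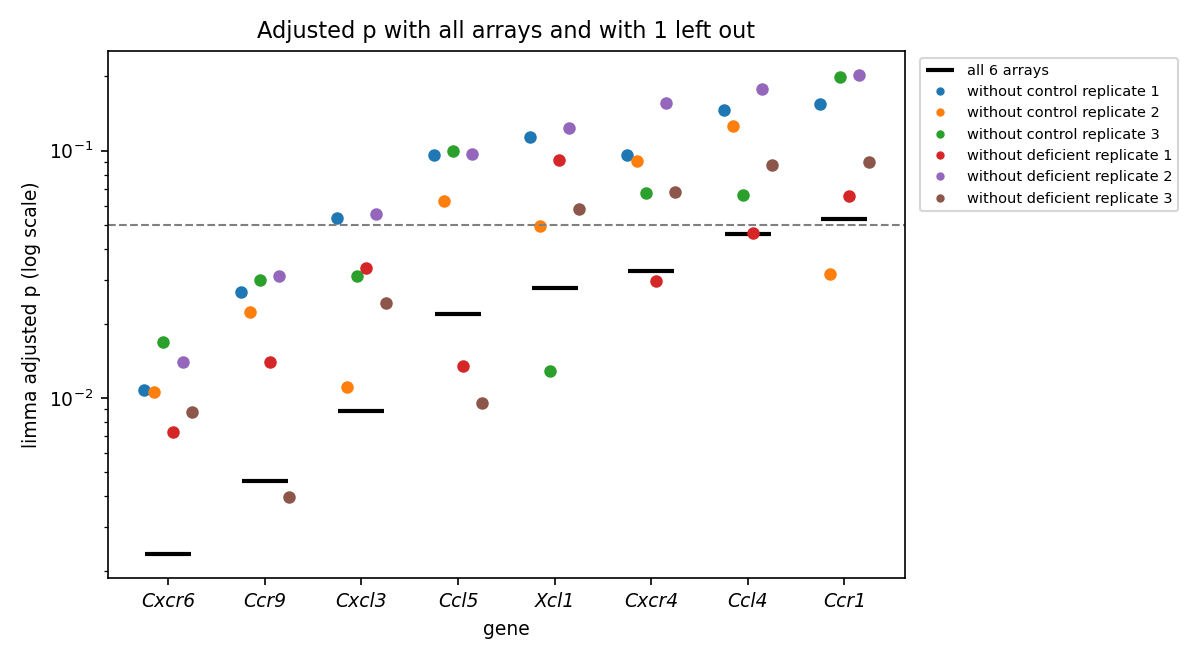
Limma adjusted p (log axis) of the 7 members that fell and of Ccr1, with all 6 arrays (black bars) and with each array left out (coloured points); the dashed line is 0.05. All points of Cxcr6 and Ccr9 lie under the line, and those of the other genes fall on both sides.

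The ligands grouped here as epithelial showed 0 calls, and 3 of the 4 tested had higher means in the deficient arrays. This grouping does not say which cells made the ligands of the other groups, Cxcl3 among them. Cxcl16, a membrane-anchored ligand of CXCR6, read 8.37, 8.62 and 8.57 in controls and 10.34, 9.12 and 8.61 in deficient mice. Deficient 1 stood well above every other array, while deficient 3 lay just under control 2. The change of 0.84 ± 0.42 (SE) did not pass (limma adjusted p = 0.356, 95% interval -0.16 to 1.83) and was 0.34 without deficient 1. A further probe set gave 1.27, with 8.06, 7.53 and 8.01 in controls and 10.13, 9.28 and 7.99 in deficient mice. Thus the ligand and its receptor Cxcr6 had fitted changes of opposite sign, of which only that of Cxcr6 passed. The difference between them was not tested.

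Ccl20, which draws CCR6-positive cells to the follicle-associated epithelium, read 5.60, 5.91 and 6.11 in controls and 7.53, 5.54 and 5.97 in deficient mice. The higher mean came from deficient 1, without which the change of 0.47 ± 0.49 (SE, limma adjusted p = 0.647) became -0.12. Ccl28, a mucosal ligand of CCR10 and CCR3, read 8.31, 7.07 and 7.08 in controls and 7.96, 7.12 and 8.02 in deficient mice. The groups overlapped throughout, at 0.21 ± 0.41 (SE, limma adjusted p = 0.811, 95% interval -0.75 to 1.18). Cx3cl1, fractalkine, read 8.61, 8.77 and 8.74 in controls and 8.01, 8.66 and 8.38 in deficient mice. Its change was -0.36 ± 0.20 (SE, limma adjusted p = 0.405), and a dimmer probe set, above 5 on 2 arrays, went the other way at 0.30. The receptors Ccr6, Ccr10 and Cx3cr1 stayed at or below 1.93, 1.28 and 4.14.

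The CCR1 ligands Ccl6 and Ccl9, which are typical of myeloid cells in the mouse, read well above the filter on all arrays and did not pass. Ccl6 read 11.24, 11.26 and 10.46 in controls and 9.65, 10.19 and 10.73 in deficient mice. Deficient 3 lay above control 3, and the change was -0.79 ± 0.34 (SE, limma adjusted p = 0.299, 95% interval -1.60 to 0.01), with a second probe set at -0.90. Ccl9 read 9.11, 8.12 and 7.15 in controls, a wide spread, against 7.78, 7.96 and 8.15 in deficient mice, all inside the control range. Its change was -0.16 ± 0.46 (SE, limma adjusted p = 0.872), and the further probe set above 5 pointed the other way at 0.40.

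Interferon-inducible ligands of CXCR3, a receptor of activated T cells, showed no call. Cxcl10 read 6.44, 5.63 and 6.76 in controls and 6.67, 5.77 and 5.72 in deficient mice, at -0.22 ± 0.37 (SE, limma adjusted p = 0.786, 95% interval -1.11 to 0.67). Cxcl11 read 6.56, 6.14 and 7.05 in controls and 6.76, 6.65 and 6.35 in deficient mice, at 0.00 ± 0.26 (SE, limma adjusted p = 0.999). The Cxcl11 probe sets disagreed: the other one read 5.97, 6.44 and 6.33 in controls and 5.51, 5.0 and 5.54 in deficient mice, without overlap, a mean difference of -0.89 that was not tested. Cxcl9 and the receptor Cxcr3 stayed at or below 3.14 and 1.93.

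The 30 members that were not tested, 17 ligands and 13 receptors, lay between 1.25 and 4.90 on every array. None exceeded 5 on any array, and 20 lay below 3 on all 6. Those that exceeded 4 on some array were Ccr2 (up to 4.90, in control 1), Ccl27a, Cx3cr1 and Cxcl14. The monocyte chemoattractants Ccl2 and Ccl7 stayed at or below 2.43 and 2.00, and the lymph node homing receptor Ccr7 at or below 3.21. Values this far below the filter are given without reading their order. For most of the pairs named above 1 partner alone was measurable: Xcl1, Ccl20, Ccl28, Cx3cl1, Cxcl10 and Cxcl1 were tested and their receptors Xcr1, Ccr6, Ccr10, Cx3cr1, Cxcr3 and Cxcr2 were not, while Cxcr4 was tested and Cxcl12 was not.

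Neighbours in the genome gave mixed calls. In the order of protein-coding genes in the RefSeq table of GRCm38.p6, with at most 5 genes between members, 5 tested ligands lie together: Ccl5 and Ccl4 fell, and Ccl3, Ccl6 and Ccl9 did not pass. In the group of Cxcl5, Cxcl3, Cxcl15, Cxcl1 and Cxcl2, 1 of the 3 tested genes fell. Ccr9 and Cxcr6 lie in a group of 7 receptor genes in which the third tested gene was Ccr1. All 6 members of the group with Ccl2, Ccl7, Ccl11, Ccl12, Ccl8 and Ccl1 were below the filter.

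Marker lists of cell types that the preparation could hold were read from the same fit. Of 17 T cell and intraepithelial lymphocyte markers on the array, 12 were tested and 10 fell, beside 1.98% of all genes tested. The median log2 change of the tested markers was -3.18, beside -0.04 over all genes tested. Of the tested markers, 3 lay above 5 in controls alone and so had to differ. In these bulk samples fewer lymphocytes and less RNA per lymphocyte cannot be told apart. The summed level of the 17 markers (log2 of the sum of linear values) ran from 14.36 to 14.73 in controls and from 10.56 to 12.51 in deficient mice. Cd247, Cd8b1, Cd2 and Thy1 were at or below 5 on all 6 arrays, and 8 of the 17 on all deficient arrays. Relative to their control mean, the tested markers averaged -4.01, -3.30 and -2.57 in deficient mice 1, 2 and 3. Among the 13 members above 5 on all arrays, Ccl5, Ccr9, Ccl6 and Ccl9 had the same order, lowest in deficient 1 and highest in deficient 3, and Ccl6 and Ccl9 did not pass. Ccl4 was lowest in deficient 2.

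Of 20 myeloid markers, 12 were tested and 4 fell (Adgre1, Itgax, Fcer1g and Tyrobp), beside 1.98% of all genes tested. The median of the tested markers was -0.97. Csf1r, Lyz2, Cd14, Mpeg1 and C1qa had overlapping groups and did not pass. Of the tested myeloid markers, 1 lay above 5 in controls alone. The summed level of the 20 markers ran from 12.20 to 13.06 in controls and from 11.21 to 11.98 in deficient mice. Cd68, Itgam, C1qc, Cd163 and Siglech were at or below 5 on all arrays. The tested myeloid markers averaged -1.24, -0.93 and -1.93 in deficient mice 1 to 3, with deficient 3 lowest. Ccr1 was above 5 in deficient 1 and below it in deficient 2 and 3. Among 11 granulocyte and mast cell markers, 3 were tested and limma called 0, with 0 also at an unadjusted p under 0.05. Their summed level ran from 7.01 to 9.75 in controls and from 7.0 to 7.73 in deficient mice, with 8 of the 11 at or below 5 throughout, beside a 3.34-fold or larger fall of Cxcl3.

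Of 14 epithelial markers all were tested and 0 passed with limma. At an unadjusted p under 0.05 there were 2, both higher, Krt18 at 0.95 ± 0.33 (SE) and Krt19 at 0.69 ± 0.28. The median of the list was 0.13. The summed level was 18.26 to 18.29 in controls and 18.32 to 18.46 in deficient mice. B and plasma cell markers gave 0 calls of 3 tested by limma (2 at an unadjusted p under 0.05). These 2 went opposite ways, Jchain at -1.62 ± 0.50 (SE) and Blnk at 1.31 ± 0.41. The summed level was 12.69 to 12.77 in controls and 12.46 to 13.36 in deficient mice. Sdc1, the brightest of the list, weighs most in that sum (0.13 ± 0.25), so the sum does not show the level of Jchain. Stromal and endothelial markers gave 0 calls of 7 tested by limma (3 at an unadjusted p under 0.05). These 3 were lower without overlap: Vim at -1.07 ± 0.28 (SE), Col1a2 at -1.69 ± 0.47 and Col3a1 at -1.74 ± 0.60. The other tested genes of the list had overlapping groups. The summed level was 11.10 to 12.23 in controls and 10.52 to 11.07 in deficient mice. The part of these cell types in the changes of the members was not tested.

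**Figure D5:**
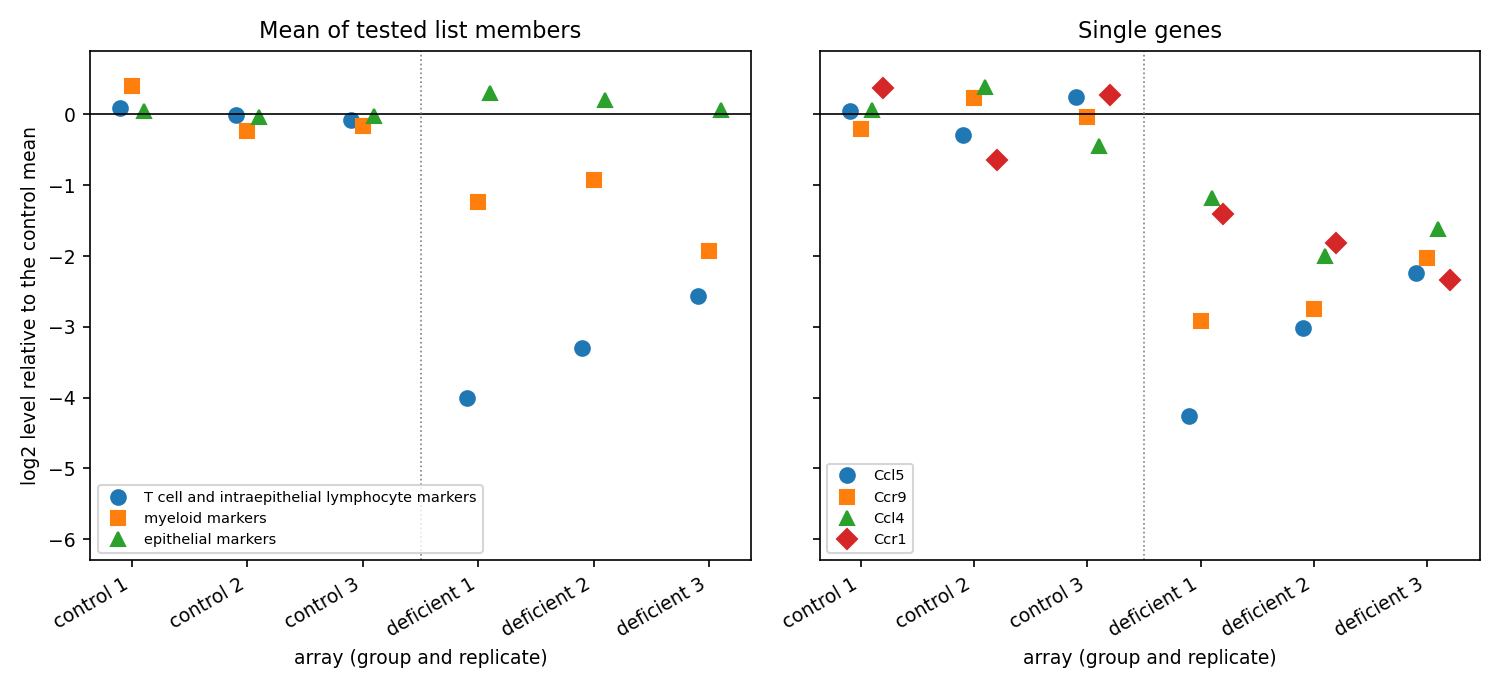
Log2 level relative to the control mean on each array, as the mean of the tested members of 3 marker lists (left) and for Ccl5, Ccr9, Ccl4 and Ccr1 (right). The T cell markers are at -4.01, -3.30 and -2.57 on deficient arrays 1 to 3, while the epithelial markers stay between 0.06 and 0.30.

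Genes that act downstream of chemokine receptors were split. Of 38 on the array, 30 were tested, 8 fell and 0 rose, with a median of -0.12. Over all genes tested, 1.98% were called lower and 0.112% higher, with a median of -0.04. Of the 30 tested genes of this list, 4 lay above 5 in controls alone (Was, Prkcb, Rac2 and Dock2) and so had to differ. Those with the smallest p were Was, a leukocyte actin nucleation factor, at -2.81 ± 0.15 (SE), Prkcb, a protein kinase C, at -2.36 ± 0.19, Rgs1 at -2.90 ± 0.23 and Rgs2 at -1.54 ± 0.17, the last pair being inhibitors of G protein signalling. Their limma adjusted p ran from 0.00108 to 0.0056, and all 4 passed in each fit that left out 1 array. With values below 5 raised to 5, Was did not pass (limma adjusted p = 0.183). Against the level 5, Was fell at least 1.41-fold and Prkcb at least 4.42-fold. Rgs1 read 12.18, 11.57 and 11.99 in controls and 9.18, 9.19 and 8.68 in deficient mice. Several genes of this list, Was and Rgs1 among them, are themselves typical of leukocytes.

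Regulators that induce chemokines, such as NF-kappa B subunits, toll-like receptors and cytokines, gave 0 calls among 22 tested of 30 on the array (limma, 4 at an unadjusted p under 0.05), with a median of -0.14. The smallest p belonged to Il1b, an inflammatory cytokine of myeloid cells, at -1.33 ± 0.40 (SE), and to Nfkbie, an NF-kappa B inhibitor, at -1.06 ± 0.34. The others of the 4 were Il33, which was higher at 1.53 ± 0.55 (SE), and Tlr3, lower at -0.40 ± 0.15. Of 11 atypical receptors and chemokine relatives, 3 were tested and 0 passed with limma, also at an unadjusted p under 0.05. Ackr4, a scavenger of CCR7 and CCR9 ligands, was at -0.49 ± 0.30 (SE) and Dpp4, a protease that trims chemokines, at -0.40 ± 0.38.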

How the data were processed

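Expression was measured in 6 mice, 3 controls and 3 deficient, with 1 array each. What the authors deposited is 1 log2 value per probe set. Partek 6.5 and GCRMA, a method that corrects background from probe sequence, are listed per the submitters' processing notes, which do not say which did what. That the scale is log2 was read from the range, 0.42 to 16.35, and the array medians, 3.26 to 3.33, while 35.6% to 36.5% of 45101 probe sets exceeded 5 on each array. Scanner files were not used here. Precision is limited by how few arrays there are.

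Of the probe sets, 64 controls were left out, and 34945 had 1 symbol, 932 several and 9160 none. The test of deficient against control was limma 3.58.1 (R 4.3.3) with lmFit and eBayes and without covariates, over 8893 genes, called at an adjusted p under 0.05, after a check on simulated arrays. Changes are deficient minus control. Folds called "at least" set values below 5 to 5, which is the filter and not a measured background. Members, roles and the 9 gene lists (175 entries, 166 on the array) were chosen with earlier results of these data known. Every tested member is named, with up to 4 called genes, or else 2, of the 3 pathway lists, and further ones where stated. Promoters are RefSeq, GRCm38.p6. No permutation p is given, since its two-sided minimum here is 0.1. The alternatives were eBayes with trend or robust, array weights, other filters, further normalization, probe set means, a floor at 5, the replicate number as a block, and fits without each array in turn.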

Additional observations from a re-analysis of the deposited data

How the results depend on the processing

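Over 17 alternatives, 0 members rose in any fit, and Ccr9 passed in all 16 in which it was tested. Cxcr6 passed in 14 of 15, Cxcl3 in 14 of 17, Ccl5 in 12 of 17, Cxcr4 in 9 of 16, Xcl1 in 9 of 17 and Ccl4 in 6 of 17, while Ccr1, not called with all arrays, passed in 4 of 16. Ccr9 and Cxcr6 did not meet the filter with the mean of probe sets and were not tested there. Nor were Cxcr6, Cxcr4 and Ccr1 with the filter at 6. The 7 members called fell to 2 without a filter and to 4 with the mean of probe sets or with values raised to 5, and ran from 2 to 6 with 1 array left out. Genes called lower (176) were 85 without a filter and 111 with the mean of probe sets, and 88 to 203 with 1 array left out. Genes called higher (10) were 33 with array weights, 0 without a filter (638 at an unadjusted p under 0.05 by limma), 17 after median centring, 6 with the mean of probe sets, and 3 to 36 with 1 array left out. The median change of tested members was -0.70 with the filter at 6, -0.68 with values raised to 5, and -1.33 to -0.80 with 1 array left out. With 1 array left out, T cell markers called ran from 4 to 11, myeloid markers from 2 to 4 and receptor signalling genes from 4 to 7, the last being 5 with the filter at 6. Of the members that did not pass, Ccl20 changed sign with array weights (-0.00), Ccl9 with array weights (0.41) and the mean of probe sets (0.12), and Cxcl11 with both (-0.32 and -0.45). With 1 array left out, Cxcl1 ran from -1.33 to -0.05, Ccl28 from 0.00 to 0.62, Cx3cl1 from -0.51 to -0.19, Ccl20 from -0.12 to 0.87, Ccl9 from -0.65 to 0.33, Cxcl10 from -0.54 to 0.02 and Cxcl11 from -0.22 to 0.23. The cause was not tested, apart from the fewer samples or genes that some fits hold by construction.

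Whether control and deficient arrays with the same replicate number were paired is not known. Deviations from the group means of same-numbered arrays correlated at 0.048, -0.291 and 0.002, and not every array correlated best with its own number. With so few arrays, these correlations over all genes cannot exclude pairing, nor pairing that affects single members. With the number as a replicate block, 132 genes were called lower and 9 higher, 5 members fell, and 6 T cell markers were called in place of 10.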
